A study of Rattus norvegicus with 8 samples.

Results

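Chymotrypsin C (Ctrc) and 5 peptidases of the cell surface, Anpep, Mme, Ace, Enpep and Dpp4, were followed in enamel organs of the rat incisor. Each of the 6 genes was read by 1 probe, found by its gene symbol, among 22523 probes on the array. The members were chosen from results of these same arrays, on the difference between the maturation and the secretory stage. Their stage differences are therefore given as a description without a test. The samples came from 4 untreated Wistar rats (Wistar Hannover in the methods) aged 4 weeks, with the enamel organ of both the secretory and the maturation stage taken from each rat and dissected along the incisor at a reference line. Total RNA of each sample was hybridized to its own Illumina RatRef-12 array, on which many beads carry the same probe. In 3 maturation-stage samples, replicates 2, 3 and 4, the source label gives the other stage, while titles, descriptions and tissue labels give maturation. By correlation 8 of 8 arrays were closer to the arrays of their own titled stage.

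Ameloblasts first secrete enamel matrix and then, in the maturation stage, take up the fragments of that matrix while mineral replaces it, so that proteolysis is a central part of enamel formation. Ctrc, also known as caldecrin, is a secreted serine protease best known from the pancreas, where it acts on the precursors of trypsin and other digestive enzymes. The other 5 genes encode enzymes anchored in the plasma membrane with the active site outside the cell, and they shorten or inactivate peptide hormones and other small peptides. Anpep removes neutral and Enpep acidic residues from the amino end, Dpp4 removes dipeptides behind a proline or alanine, Mme (neprilysin) cuts within short peptides, and Ace removes dipeptides from the carboxyl end. The renin-angiotensin system, enkephalins, tachykinins and cholecystokinin supply well-known substrates of several of them.

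The stretch of 250 bases upstream of the annotated start is shown for the 3 members with the highest stage differences, from RefSeq on GRCr8, with matches to the motifs searched in capitals. Ctrc is shown for its TATAAA motif (chr5:159439558-159439807, minus strand), Anpep for its GTTAAT motif (chr1:143195102-143195351, minus strand) and Mme for its 2 GGGCGG motifs (chr2:149872247-149872496, plus strand).
Ctrc: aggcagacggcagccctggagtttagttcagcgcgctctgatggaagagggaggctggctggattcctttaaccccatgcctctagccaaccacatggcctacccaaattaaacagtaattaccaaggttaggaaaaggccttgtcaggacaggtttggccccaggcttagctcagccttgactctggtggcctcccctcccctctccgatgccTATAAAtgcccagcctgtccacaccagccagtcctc
Anpep: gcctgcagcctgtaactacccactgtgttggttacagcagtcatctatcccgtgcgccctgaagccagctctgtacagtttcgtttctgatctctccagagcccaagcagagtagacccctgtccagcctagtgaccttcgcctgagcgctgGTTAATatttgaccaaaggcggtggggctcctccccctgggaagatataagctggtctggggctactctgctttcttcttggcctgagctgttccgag
Mme: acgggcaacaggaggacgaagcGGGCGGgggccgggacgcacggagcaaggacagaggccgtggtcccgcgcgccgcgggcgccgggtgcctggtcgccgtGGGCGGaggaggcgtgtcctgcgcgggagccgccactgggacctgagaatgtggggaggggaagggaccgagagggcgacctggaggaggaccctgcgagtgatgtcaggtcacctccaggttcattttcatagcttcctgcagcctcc

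The 6 upstream stretches did not share 1 of the motifs. On both strands, TATAAA (the core of a TATA box) was found 36 to 31 bases before the start of Ctrc and, reversed, 42 to 37 bases before that of Ace, and it is present in 12.9% of the 33469 promoters of the same length. GTTAAT, a part of the site of the factor HNF1, lay 98 to 93 bases before the start of Anpep and is present in 6.45% of promoters. GGGCGG (a GC box) was found at 2 positions for Mme and at 4 for Ace, of which 2 overlap, against 30.5% of promoters with at least 1. CCAAT was found for Dpp4 and is present in 34.0% of promoters, and none of the 4 motifs was found for Enpep. The GC content was 56.0% for Ctrc, 55.6% for Anpep, 70.4% for Mme, 69.2% for Ace, 62.4% for Dpp4 and 45.2% for Enpep, where the median over all promoters was 51.2% with quartiles of 44.0% and 60.0%. These matches are descriptions of the letters in the window.

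The signals summed to between 11881692 and 12046793 per secretory-stage array and between 13355073 and 16122664 per maturation-stage array. Detected probes, those with a detection p (against the negative controls) under 0.05, numbered 10667 to 10941 per secretory-stage array. Per maturation-stage array they numbered 11164 to 11450. The labelled tissue was checked against ameloblast markers. Klk4, the maturation-stage matrix protease, had normalized log2 signals of 13.12 to 13.45 in the maturation stage and 5.14 to 6.47 in the secretory stage. Enam, a secretory-stage matrix protein, lay between 11.94 and 12.03 in the secretory stage, and at 9.08, 5.17, 5.53 and 8.22 in maturation replicates 1 to 4, so that replicates 1 and 4 had more of this transcript than the other two. All signals below are background-corrected, quantile-normalized log2 values unless they are named as deposited, and a difference is maturation minus secretory on that scale. Levels of different probes are not comparable with each other. In these bulk samples fewer cells of a type and less RNA per cell cannot be told apart.

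Ctrc, Anpep and Mme had clearly higher signals in the maturation stage, Ace and Enpep had slightly higher mean signals, and Dpp4 was detected on none of the 8 arrays. The differences were 4.34 for Ctrc (20.2-fold), 2.77 for Anpep (6.82-fold), 1.59 for Mme (3.01-fold), 0.73 for Ace (1.65-fold) and 0.58 for Enpep (1.5-fold). In the fit over all probes (limma, Benjamini-Hochberg adjusted p below 0.05 and at least 1.8-fold, here termed called), 3 of the 6 genes were called and all 3 were higher, where 7.75% of all probes were called and 4.60% were called higher. In 4 of the 6 genes all maturation-stage values lay above all secretory-stage values, which held for 13.1% of all probes. Since the members were chosen on this contrast, nothing is read from these counts. The median difference of the 6 genes was 1.16, against -0.013 over all probes.

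**Figure D1:**
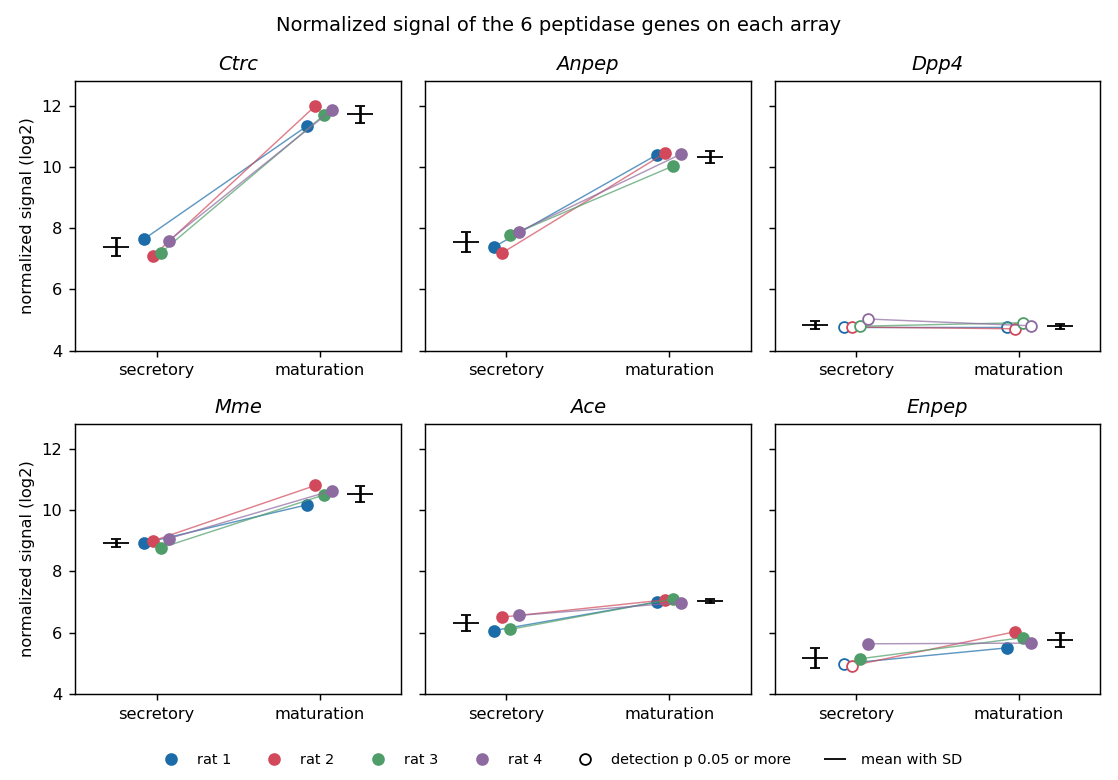
Normalized log2 signal (y axis) of each gene on the 4 secretory-stage and 4 maturation-stage arrays (x axis), with a line joining the samples of 1 rat, open points where the detection p was 0.05 or more, and bars for the mean with the SD. Ctrc goes from 7.07 to 7.65 up to 11.34 to 11.99, while all 8 points of Dpp4 are open and lie between 4.72 and 5.03.

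Ctrc was the member with the widest gap between the stages. Its signals in secretory replicates 1 to 4 were 7.65, 7.07, 7.19 and 7.59, with a mean of 7.38 ± 0.287 (SD, n = 4). In maturation replicates 1 to 4 they were 11.34, 11.99, 11.68 and 11.85, with a mean of 11.72 ± 0.281 (SD, n = 4). The lowest maturation-stage value lay far above the highest secretory-stage value, and the spread within each stage was small beside the gap. The deposited signals, before any correction, showed the same order, with 203 to 246 in the secretory stage and 3393 to 4720 in the maturation stage. Ctrc was detected on all 8 arrays, so that the difference was measured on both sides. It ranked 22nd from the top among the differences of the 22523 probes. Within the rats the difference was 3.69, 4.92, 4.49 and 4.26 in rats 1 to 4. It was lowest in rat 1, with the highest secretory-stage and the lowest maturation-stage signal of Ctrc. Maturation replicate 1 also had the highest Enam signal of its stage (9.08), while replicate 4, with Enam at 8.22, had Ctrc at 11.85. A link between the Enam and Ctrc signals was not tested. Without maturation replicate 1 the difference was 4.46.

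The pancreas is the usual source of Ctrc, and none of the 7 acinar cell markers on the array (Amy2a3, Pnlip, Cel, Pnliprp1, Reg1a, Clps and Rbpjl) was detected on any array. Their summed normalized signal was 157 to 166 in the secretory stage and 152 to 164 in the maturation stage. Of 12 other genes of digestive peptidases, with the trypsin activator Tmprss15 among them, 4 were detected on at least 4 arrays and 4 on no array, namely Prss1 and Prss2 (trypsinogens), Cela2a (an elastase) and Tmprss15. Ctrl, a chymotrypsin-like protease, passed the adjusted p (0.00252 from limma) with lower signals in the maturation stage, by a difference of -0.42 that fell short of 1.8-fold. Cela1, an elastase with no detection on the secretory arrays, also passed it (0.00483 from limma), with maturation signals higher by at least 1.06-fold. The 1 gene called was Cela3b, an elastase-type protease, with secretory-stage signals of 6.94, 6.57, 6.77 and 8.08 and no detection in the maturation stage. It was at least 4.41-fold lower there (adjusted p = 6.77e-05 from limma). Its fitted difference of -2.67 was -1.64 with an offset of 50 and -1.21 without background correction. The median difference of the 12 genes was 0.018, close to that of all probes.

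Anpep, the aminopeptidase with a preference for neutral residues, had the next widest gap. Its signals in secretory replicates 1 to 4 were 7.39, 7.19, 7.76 and 7.88 (mean 7.56 ± 0.320, SD, n = 4), and in maturation replicates 1 to 4 they were 10.40, 10.45, 10.03 and 10.42 (mean 10.33 ± 0.198, SD, n = 4). The stages did not overlap, and maturation replicate 3 was the lowest of its stage. The deposited signals ran from 213 to 272 and from 1174 to 1831. Within rats 1 to 4 the differences were 3.01, 3.26, 2.27 and 2.54, so that rat 3 had the smallest, and without its maturation array the difference was 2.87. The rank among all probes was 66.

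Enpep, the aminopeptidase for acidic residues that trims angiotensin II and cholecystokinin, was near the limit of detection. The secretory-stage signals of 4.99, 4.92, 5.15 and 5.63 included detection in replicates 3 and 4 only, with detection p of 0.0642 and 0.0788 in replicates 1 and 2. All 4 maturation-stage signals, 5.50, 6.03, 5.84 and 5.66, were detected. The stages overlapped, because secretory replicate 4 lay above maturation replicate 1. The difference within rats was 0.51, 1.11, 0.69 and 0.02, so that rat 4 showed almost none. The means were 5.17 ± 0.323 and 5.76 ± 0.227 (SD, n = 4 each), and without secretory replicate 4 the difference came to 0.74, and without background correction to 0.20.

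The other aminopeptidases gave a median difference of 0.038 over the 11 of 15 listed genes with a probe. Of these 8 were detected on at least 4 arrays, and 1 was called, in the upward direction. This was Lap3, a cytosolic leucine aminopeptidase, which rose from 5.15 ± 0.115 to 6.15 ± 0.382 (SD, n = 4 each, adjusted p = 0.00145 from limma) with maturation values from 5.63 to 6.51. Its difference of 1.0 missed 1.8-fold with an offset of 50 (0.60), without negative controls (0.78) and without background correction (0.37). Erap1, which trims peptides in the endoplasmic reticulum, and Npepl1 passed the adjusted p (0.00773 and 0.0424 from limma) in opposite directions, with differences of 0.45 and -0.19 short of 1.8-fold. Rnpep, Lta4h, Dnpep and Xpnpep1, all widely expressed cytosolic or secreted enzymes, had differences of 0.21, 0.038, 0.052 and 0.068.

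Mme (neprilysin), which inactivates enkephalins, tachykinins and natriuretic peptides, was detected in both stages, and its maturation-stage signals were the higher ones. Secretory replicates 1 to 4 had signals of 8.92, 8.99, 8.76 and 9.07 (mean 8.94 ± 0.130, SD, n = 4). Maturation replicates 1 to 4 had signals of 10.17, 10.80, 10.49 and 10.63 (mean 10.52 ± 0.267, SD, n = 4). No value of one stage lay within the range of the other. The deposited signals were 448 to 515 and 1561 to 2183, a ratio of means of 3.79, larger than the 3.01-fold after normalization. Within rats 1 to 4 the difference was 1.25, 1.82, 1.73 and 1.56. In the maturation stage the order of the replicates was the same for Mme as for Ctrc, with replicate 1 lowest and replicate 2 highest, and without replicate 1 the difference was 1.71. The rank of Mme among all probes was 311.

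Of the 6 relatives of Mme in the neprilysin family, 3 were detected on at least 4 arrays and 1 was called. Ece1, which converts the precursor of endothelin to the active peptide, rose from 8.34 ± 0.237 to 9.80 ± 0.261 (SD, n = 4 each), a difference of 1.45 (standard error 0.150, adjusted p = 6.46e-05 from limma). Its secretory values of 8.07 to 8.63 and maturation values of 9.55 to 10.10 did not overlap. Phex, the family member mutated in a hereditary rickets with low phosphate, had a difference of -0.56 that did not pass the test (adjusted p = 0.205), and Mmel1, Ece2, Ecel1 and Kel lay between -0.14 and -0.039. The median difference of the 6 was -0.12.

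Ace, which makes angiotensin II and breaks down bradykinin, had low signals with a small gap between the stages. In secretory replicates 1 to 4 the signals were 6.07, 6.51, 6.11 and 6.56 (mean 6.31 ± 0.258, SD, n = 4). In the maturation stage they were 7.0, 7.07, 7.10 and 6.98 (mean 7.04 ± 0.0544, SD, n = 4). The stages did not overlap, and the maturation-stage values were close together. The deposited signals were 142 to 167 and 235 to 267, and Ace was detected on all 8 arrays. Within rats 1 to 4 the differences of 0.93, 0.56, 0.99 and 0.42 lay on both sides of the 1.8-fold threshold of 0.85. Scaling the arrays to a common median in place of quantile normalization brought the mean difference to 1.01, past that threshold, and no background correction brought it to 0.38.

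Dpp4, which cuts incretin hormones and the chemokine Cxcl12, was not detected. Its deposited signals of 108 to 117 in the secretory stage and 118 to 123 in the maturation stage had detection p of 0.0533 to 0.168, and the lowest, in secretory replicate 4, lay just above the threshold of 0.05. The normalized signals were 4.76, 4.77, 4.80 and 5.03 in secretory replicates 1 to 4 and 4.76, 4.72, 4.91 and 4.81 in maturation replicates 1 to 4, with full overlap. No fold is given for it, and a low level of the transcript was not detectable with this probe.

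Among the other dipeptidyl and prolyl peptidases, 11 genes had a probe, 9 were detected on at least 4 arrays, and 1 was called. Fap, the surface peptidase closest to Dpp4, rose by 1.03 (standard error 0.125, adjusted p = 1.88e-04 from limma), from values of 8.34 to 8.72 to values of 9.25 to 9.78. Dpp7 and Prcp, both lysosomal peptidases, passed the adjusted p but not 1.8-fold, with differences of 0.55 and 0.66 (adjusted p = 3.74e-04 and 1.31e-04 from limma). So did Pepd, a prolidase, at 0.28 and, in the other direction, Prepl, a relative of prolyl endopeptidase, at -0.44 (adjusted p = 0.0204 and 0.00607 from limma). The cytosolic Dpp8 and Dpp9 had differences of 0.0075 and -0.011, and Dpp6 and Dpp10 were detected on no array. The median difference of the list was 0.17.

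**Figure D2:**
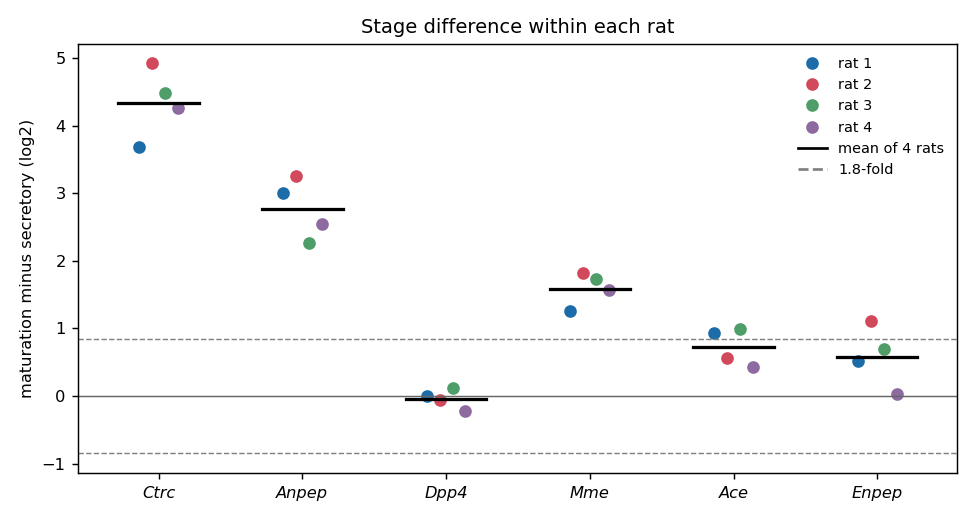
Maturation minus secretory difference in normalized log2 signal (y axis) within each of the 4 rats for the 6 genes (x axis), with a black bar for the mean and dashed lines at 1.8-fold. The 4 points lie above the upper line for Ctrc (3.69 to 4.92), Anpep (2.27 to 3.26) and Mme (1.25 to 1.82), on both sides of it for Ace and Enpep, and around 0 for Dpp4.

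The error within an array was read from the beads. The standard error over the beads of a member's probe was between 2.29% and 5.70% of its deposited signal, with 26 to 58 beads per probe and array. This error covers the beads of 1 array only. The spread between rats is given by the SDs above.

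The renin-angiotensin system contains substrates and partners of Ace and Enpep. Of its 10 genes other than these, 5 were detected on at least 4 arrays and 3 were called, all upward, with a median difference over the 10 of 0.095. Agtr1a, the main angiotensin II receptor, rose from 8.25 ± 0.263 to 9.87 ± 0.122 (SD, n = 4 each), a difference of 1.61 (standard error 0.126, adjusted p = 1.09e-05 from limma). Its values were 7.92, 8.18, 8.43 and 8.49 in secretory replicates 1 to 4 and 9.91, 9.70, 9.99 and 9.88 in maturation replicates 1 to 4, without overlap. Cma1, mast cell chymase, which can also make angiotensin II, had no detection on the secretory arrays, and its maturation signals of 6.70 to 7.56 were higher by at least 4.36-fold (adjusted p = 5.89e-06 from limma). Its fitted difference of 2.47 was 1.57 with an offset of 50 and 1.07 without background correction. Atp6ap2, the prorenin receptor and a partner of the vacuolar proton pump, rose by 0.85 (adjusted p = 3.35e-06 from limma), just past the threshold, and missed it without maturation replicate 1 or 4 (0.84 and 0.82), without secretory replicate 2 (0.84) and without background correction (0.84). Renin, Agtr1b and Mas1 were detected on no array, and angiotensinogen on 2 maturation-stage arrays.

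Peptides that these enzymes cut, and their receptors, were read on the same arrays. Of 15 peptide genes, 6 were detected on at least 4 arrays, 1 was called higher and 1 lower. Cck, the cholecystokinin precursor and a substrate of Enpep and Mme, rose from 5.04 ± 0.239, with detection on 2 arrays, to 11.27 ± 0.970 (SD, n = 4 each, adjusted p = 3.31e-06 from limma). Its maturation values were 9.85, 12.03, 11.68 and 11.52 in replicates 1 to 4, with replicate 1 lowest. Its difference of 6.23 was 5.23 with an offset of 50 and 4.39 without background correction. Penk, the enkephalin precursor and the source of the classic substrates of Mme and Anpep, was 3.48-fold lower (standard error of the log2 difference 0.140, adjusted p = 1.07e-05 from limma), from values of 11.95 to 12.63 to values of 10.33 to 10.74. Cxcl12, a substrate of Dpp4, was at 11.28 and 11.22, with a difference of -0.058. Edn1, the product of which Ece1 activates, had a difference of 0.59 that passed the adjusted p (0.00988 from limma) but not 1.8-fold. Gip, an incretin cut by Dpp4, passed it too (0.0463 from limma) but was detected on no array.

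Of 11 receptors with a probe, 4 were detected on at least 4 arrays and 7 on none, among them both cholecystokinin receptors, Cckar and Cckbr. Tacr1, the receptor of substance P, was called, with no detection on the secretory arrays and maturation signals of 5.89 to 6.23, higher by at least 1.98-fold (adjusted p = 1.49e-06 from limma). Ednrb, an endothelin receptor, had a difference of 0.68 that passed the adjusted p (0.00407 from limma) but not 1.8-fold. Of the 4 carriers that import di- and tripeptides, Slc15a3, of endosomes and lysosomes, rose by 1.0 (adjusted p = 1.07e-04 from limma), from values of 6.12 to 6.52 to values of 7.06 to 7.48. Slc15a1, the intestinal carrier, passed the adjusted p (0.00690 from limma) without a fold, as it was detected on 2 maturation-stage arrays only. Neither Tacr1 nor Slc15a3 reached 1.8-fold with an offset of 50 (0.79 and 0.77) or without background correction (0.54 and 0.55).

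Of 10 other surface peptidases and carboxypeptidases with a probe, 6 were detected on at least 4 arrays, and 1 was called, downward. Cpm, a carboxypeptidase anchored at the surface that removes basic residues, fell by 1.41 (standard error 0.0993, adjusted p = 5.65e-06 from limma), from values of 6.09 to 6.25 to values of 4.56 to 5.01, with detection on 1 maturation-stage array. With an offset of 50 the fall was 0.79 in size, and without background correction 0.51, both short of 1.8-fold. Cpz, a secreted carboxypeptidase, had a difference of 0.72 that passed the adjusted p (0.00523 from limma) but not 1.8-fold. The brush border peptidases Dpep1, Mep1a and Folh1, which share the intestinal and renal brush border with Anpep, Enpep, Mme and Dpp4, were detected on no array.

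Over the 9 lists together, 90 of 98 genes had a probe, 9 were called higher and 3 lower, 13.3% in all. Among all probes 7.75% were called and 4.60% were called higher. The lists were chosen with earlier results of these data known, so nothing is read from this contrast. The median difference of 0.036 lay close to the -0.013 of all probes. Of the 90 genes, 48 were detected on at least 4 arrays and 29 on no array, where 11233 of all 22523 probes were detected on at least 4.

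**Figure D3:**
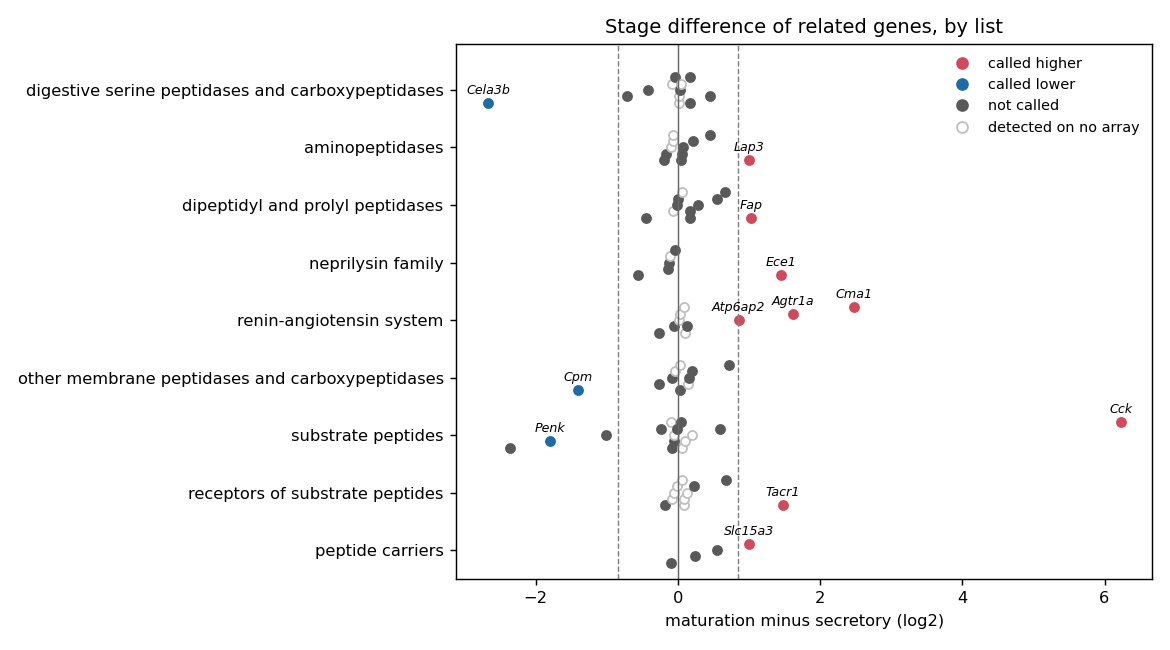
Maturation minus secretory difference in normalized log2 signal (x axis) of 90 related genes in 9 lists (y axis), 1 point per gene, red or blue with its name where called, grey where not called, open where detected on no array, with dashed lines at 1.8-fold. The 9 genes called higher lie in 7 lists, from Atp6ap2 at 0.85 to Cck at 6.23, and the 3 called lower are Cela3b, Penk and Cpm.

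Several of the 6 genes are known from other cell types, leukocytes (Anpep), endothelium (Ace), pericytes (Anpep and Enpep) and T cells (Dpp4), and the markers of those cells were read on the same arrays. Of 6 macrophage and leukocyte markers with a probe, 4 were called higher, and their summed signal was 3305 to 3997 in the secretory stage and 8860 to 11427 in the maturation stage, without overlap. Of 4 pericyte and smooth muscle markers, 3 were called higher (Rgs5, Cspg4 and Des), with sums of 304 to 421 and 597 to 739. Rgs5 and Des had no detection on the secretory arrays and were higher by at least 1.68-fold and 2.13-fold, and none of the 3 calls remained without background correction. Of 4 endothelial markers 1 was called higher, Vwf, and this call was lost without background correction and without secretory replicate 1, secretory replicate 4 or maturation replicate 3. The endothelial sums were 1197 to 1803 and 2187 to 3150. They largely follow Vwf, whose means of 10.28 and 11.16 were far above those of the other markers of the list. Cdh5, which defines endothelium, was detected on no array, and Tek and Flt1 had differences of 0.083 and -0.13. Of 6 T cell markers, Cd4 and Cd8a passed the adjusted p (0.00108 and 0.00121 from limma) with differences of 0.55 and 0.63, short of 1.8-fold, 1 (Cd3d) was detected on no array, and the sums were 259 to 290 and 291 to 352. Of 6 fibroblast markers, Col1a2, Lum and Pdgfra passed the adjusted p with differences of 0.21, 0.54 and 0.48, short of 1.8-fold, with sums of 59559 to 70639 and 76612 to 79613. Of 5 odontoblast and osteoblast markers, 1 was called higher (Ibsp) and 1 lower (Dspp), with sums of 4609 to 19198 and 9368 to 10925. The part of these cell types in the signals of the 6 genes was not tested.

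**Figure D4:**
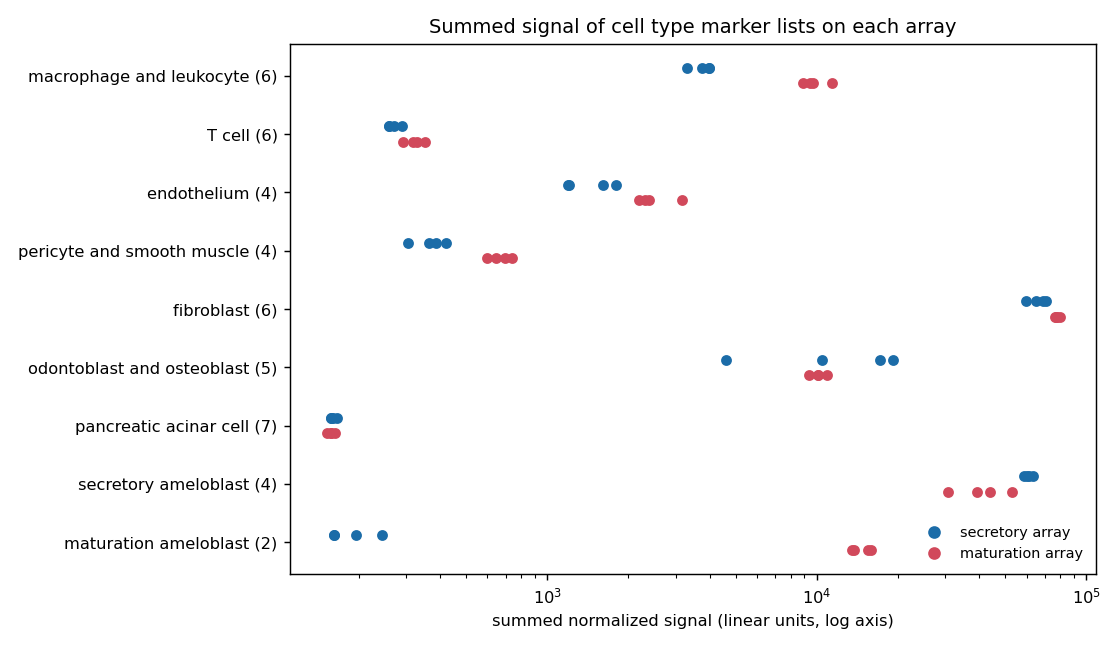
Summed normalized signal in linear units (x axis, log scale) of 9 lists of cell type markers (y axis, number of genes in brackets) on each secretory-stage (blue) and maturation-stage (red) array. The odontoblast and acinar sums overlap between the stages and the other 7 do not, with the T cell sums nearly touching at 290 and 291, and the acinar sums stay between 152 and 166 in both. For single probes, all maturation values lay above all secretory values in 13.1%. No such share was taken for sums over other lists, so nothing is read from the count of 7.

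The ameloblast lists framed these changes. Of 4 secretory markers, Enam and Mmp20 were called lower, and Amelx and Ambn, whose transcripts stayed abundant, had differences of -0.53 and -0.36 (adjusted p = 0.0555 and 0.0353 from limma). Both maturation markers with a probe, Klk4 and Slc24a4, were called higher, by 7.57 and 5.07.

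The genes whose profiles over the 8 arrays were most like those of the members were found by the root mean square distance between normalized log2 profiles, each with its own mean subtracted, among 10971 genes detected on at least 4 arrays. This is a description over 8 arrays that share their stage. For Ctrc the closest were Serpinb1a, a protease inhibitor, at a distance of 0.132, Snap25, a protein of vesicle fusion, at 0.182, and Cldn4, a tight junction protein, at 0.240, with stage differences of 4.37 for Serpinb1a and 4.01 for Cldn4. Snap25 was detected on none of the secretory arrays, nor was Vwa7 (named next), so that their secretory values are background and their distances are nominal. For Anpep they were Lurap1l (0.137), the kinase Ptk2b (0.193) and Vwa7 (0.203). For Mme they were Cryl1, a crystallin-related enzyme (0.0912), F11r, a junctional adhesion molecule (0.0981), and Sesn3, a sestrin (0.100). Ace was closest to Mfsd3 (0.0809), Dnah1 (0.0906) and Plxdc1 (0.0911), and Enpep to Bicdl1 (0.117) and Them4 (0.135) among others. The distances of the 3 closest genes were smaller for Mme and Ace than for Ctrc.

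**Figure D5:**
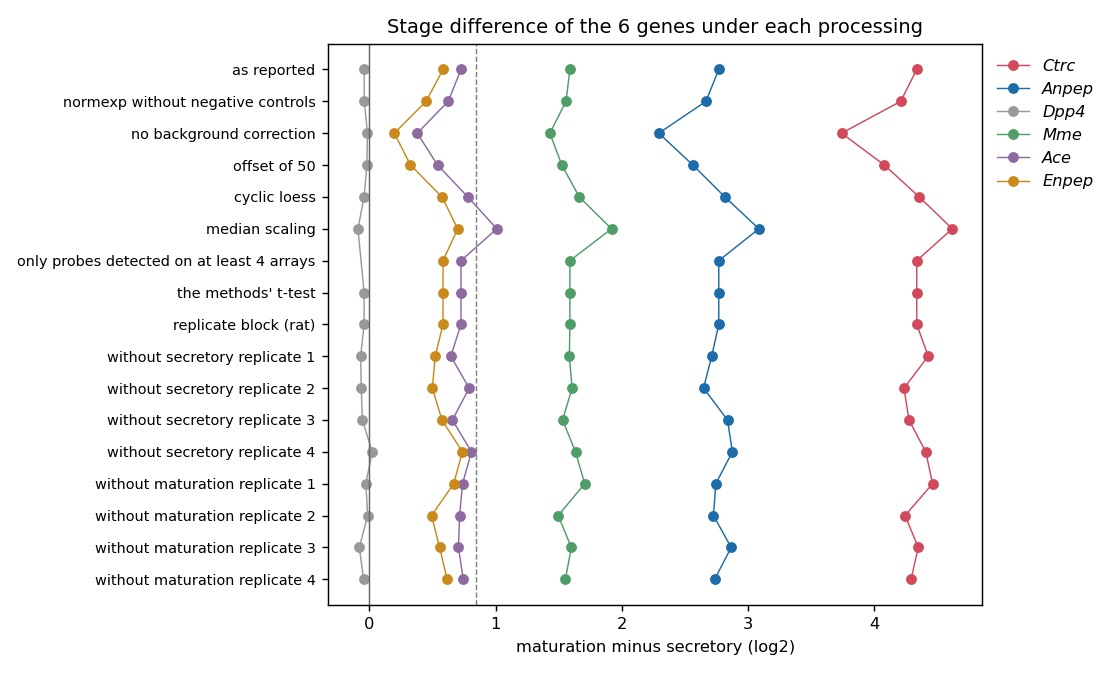
Maturation minus secretory difference in normalized log2 signal (x axis) of the 6 genes under the processing reported and 16 alternatives (y axis), with a dashed line at 1.8-fold. Ctrc, Anpep and Mme stay to the right of the line throughout, Ace crosses it with median scaling only, and Dpp4 has no point where probes were filtered on detection.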

How the data were processed

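Enamel organ RNA, 4 samples per stage, was measured on RatRef-12 v1 BeadChips. For every probe the authors deposited an intensity per array (the mean over its beads, neither corrected for background nor normalized), a detection p-value, and the number and standard error of the beads. The scanner software and the genome build of the array annotation are not given in the sources used here. In R 4.3.3 with limma 3.58.1, signals were background-corrected by neqc, which infers the negative controls from detection p, then raised by an offset of 16, quantile-normalized and put on the log2 scale. The unpaired test (lmFit, eBayes) ran over all 22523 probes with Benjamini-Hochberg adjustment. A call needs an adjusted p below 0.05 and at least 1.8-fold. Where a probe was detected on no array of a stage, its level there is a bound, set per array at the dimmest detected probe, or at its own value where that is higher. Low values and the offset shrink the folds of dim probes. The number of arrays limits the precision. Tables and figures were made in Python 3.11.15.

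The replicate numbers pair the samples, since each rat gave both stages. Samples of the same rat also deviated together from their stage means (r = 0.195, 0.129, 0.219 and 0.234 in rats 1 to 4, across 11233 probes with detection on 4 or more arrays), whereas mean r between different rats lay from -0.0755 to -0.0416. Rat was added as a block in 1 alternative.

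The 6 members, the 9 lists of related genes and the 9 marker lists were chosen with earlier results of these data known. Listed genes were matched by gene ID or symbol through RefSeq (GRCr8), and a gene with several probes was taken by the brightest. The genes named are the members, the called related genes (at most 5 per list, and all in the neprilysin, dipeptidyl and renin-angiotensin lists) and the 3 genes nearest in profile, of which 1 is not reported here. Other genes of those lists, and the markers, were named after their values were seen. Promoters are RefSeq sequences, searched for 4 motifs chosen after the sequences were seen. The fit was tested on simulated arrays with known changes. The alternatives changed the background correction (normexp without negative controls, or none), the offset (50), the scaling (cyclic loess or a common median) or the probes tested (a detection filter), or used the two-tailed test of the methods, the block, or left out each array in turn.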

Additional observations from a re-analysis of the deposited data

Results flagged for a closer look

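For the 6 members and the 12 called related genes, the 31 sets of 4 arrays with any detection were searched for a value far from the rest (Dixon's gap over the range), and 1 such value was found, where about 1.55 are given by chance. It was Anpep in maturation replicate 3, at 10.03 against 10.40 to 10.45 in the other maturation arrays, a gap of 0.870 of the range. In the secretory sample of that rat Anpep was at 7.76, within the range of its stage.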

How the results depend on the processing

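The rat as a block gave 1750 called probes, 3 called members and 12 called related genes, and it changed no call among the members and named related genes. Without background correction 927 probes were called in place of 1745, and 7 related genes in place of 12, and the differences of Ctrc, Anpep, Ace and Enpep came to 3.74, 2.29, 0.38 and 0.20. Median scaling raised the share of called probes that were higher in maturation from 59.3% to 77.6%, gave differences of 3.09, 1.92 and 1.01 for Anpep, Mme and Ace, and called a 4th member, Ace. With it 15 related genes were called, 12 higher and 3 lower. In the other alternatives 3 members were called. The two-tailed Student test that the methods name, with Benjamini-Hochberg adjustment and the same 1.8-fold threshold, called 1718 probes, 3 members and 12 related genes. With each array left out in turn, 1714 to 1820 probes, 3 members in each case and 11 to 13 related genes were called. The difference of Ctrc then lay between 4.24 and 4.46, that of Anpep between 2.65 and 2.88, that of Mme between 1.5 and 1.71, and that of Enpep between 0.49 and 0.74. Of 287 values of single genes under the alternatives, none reversed where the gene was called, 13 called values fell short of the thresholds, all of Lap3, Atp6ap2, Cpm, Tacr1 or Slc15a3, and 7 values of members moved by more than their SD. Signals near the background limit what can be said of Dpp4 and Enpep.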
